A study of Mus musculus with 28 samples.

Results

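The interleukin 6 family is a set of secreted ligands, their receptor chains and a feedback inhibitor, taken here as 10 genes: the ligands Il6, Lif, Osm, Cntf, Clcf1 and Il11, the receptor chains Il6st, Lifr and Osmr, and the inhibitor Socs3. They were chosen by gene symbol, as the probe sets that carry 1 of these symbols and no other. Of the 10 genes, 9 had such a probe set, out of 19938 genes tested. Cntf had none, since its probe set is shared with Zfp91 and Gm44505, and it was not analysed here. Socs3 had 2 probe sets, and the one with the higher mean signal was used.

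The data are log2 signals of hippocampal RNA from 28 mice, 1 Affymetrix mouse gene array each. All mice were labelled female and C57BL/6J. Among 18 young mice, labelled 10 weeks old, wild-type, fosB-null (G/G, without either product of the gene) and fosB d/d mice (without full-length FosB, keeping the truncated ΔFosB) received saline or kainic acid (KA), with 3 mice in each of the 6 groups. KA is a glutamate receptor agonist that induces seizures. Neither the dose nor the time from injection to dissection is given in the sources used here. A further 10 mice were aged, from 64.7 to 71 weeks, and carry no treatment label: 3 wild-type, 2 fosB-null without epilepsy, 3 fosB-null with epilepsy and 2 fosB d/d mice. The alleles are present in every cell of the mutants, so the values describe whole mutant animals. One label of the fosB d/d saline mice mentions kainate, against their titles and treatment labels, which were followed. A protocol text gives 14 months for every mouse, against the 10 weeks on the young mice's own labels. The arrays are labelled biological replicates.

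Ligands of this family bind a ligand-specific or shared receptor chain together with Il6st (gp130), the common signalling subunit. Lif, Clcf1 and Cntf signal through Lifr paired with gp130, Osm through Osmr or Lifr paired with gp130, and Il6 and Il11 through gp130 after binding their own alpha chains. The paired chains activate JAK kinases, which phosphorylate the transcription factor STAT3. STAT3 induces Socs3, which binds gp130 and the JAKs and limits further signalling. In the injured brain, Lif and its relatives are known for their action on astrocytes and microglia. FosB and ΔFosB are AP-1 transcription factors made in neurons after strong activity.

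The start regions of Socs3 and Lif are shown because both genes differed between genotypes after KA, and because they hold a STAT and an AP-1 motif. Promoter sequences from RefSeq (GRCm38.p6) were found for 8 of the 10 genes and not for Osm or Clcf1. The 250 bases before the start site are printed 5′ to 3′ on the gene's strand, at chr11:117969367-117969616 on the minus strand for Socs3 and at chr11:4257318-4257567 on the plus strand for Lif. Capitals mark the motif.
Socs3: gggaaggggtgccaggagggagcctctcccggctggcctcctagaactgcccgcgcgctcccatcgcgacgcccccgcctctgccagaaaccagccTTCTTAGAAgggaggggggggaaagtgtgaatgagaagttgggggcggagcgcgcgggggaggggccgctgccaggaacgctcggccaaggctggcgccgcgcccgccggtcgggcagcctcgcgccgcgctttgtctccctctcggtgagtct
Lif: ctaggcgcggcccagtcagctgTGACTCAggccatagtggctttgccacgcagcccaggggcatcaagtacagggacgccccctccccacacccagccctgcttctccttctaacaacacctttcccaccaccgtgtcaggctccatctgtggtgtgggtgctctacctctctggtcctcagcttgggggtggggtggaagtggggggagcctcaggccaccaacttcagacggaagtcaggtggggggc
The STAT motif TTCNNNGAA was searched on both strands from 250 bases before to 50 after the start site and matched Socs3 once, from position -154 to -146. It was found in 8.3% of all 32851 promoters of that length. The AP-1 motif TGANTCA matched Lif from -228 to -222, Il6 from -249 to -243, Cntf from -245 to -239, Osmr from 4 to 10 and 1 of the promoters of Il11 from -98 to -92, and it was found in 7.81% of all promoters. Il6st and Lifr held neither motif in this window. These matches are letters in a sequence; no binding was measured here.

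The arrays stood apart in signal level in a way the groups only partly share. Replicate 1 of all 6 young groups had a median signal over probe sets of 8.07 to 8.11. The other saline arrays and the other wild-type KA arrays lay at 8.33 to 8.43, and the other KA arrays of both mutants at 8.05 to 8.11. These 3 sets of arrays were seen in the signals and no label names them. The last of them holds mutant KA arrays only. With the sets as a block, mutant KA levels are thus tied to other groups only through 1 KA mouse of each mutant, replicate 1. The median gene therefore shifted by 0.01 with KA in wild type but by -0.17 in each mutant, and by -0.20 (fosB-null) and -0.22 (fosB d/d) against wild type after KA. Changes are given as deposited, and where this shift bears on them also after quantile normalization, which gives all arrays the same distribution. The samples are whole hippocampus, so fewer cells of a type and less RNA per cell cannot be told apart. Markers of hippocampal principal cells were measured for 10 of 10 genes, and their mean log2 signal lay between 10.47 and 10.88 in the young groups. The array reports 1 Fosb probe set, and its targeted part of the transcript is not given: Fosb read 8.87 ± 0.23 in wild type, 8.56 ± 0.13 in fosB-null and, for fosB d/d, 9.26 ± 0.38, all after saline (SD, n = 3 each). It passed the test in none of the 15 comparisons (limma, lowest adjusted p = 0.139), so it does not check the labels.

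In wild-type hippocampus, KA raised Lif and Clcf1 among the ligands, Osmr among the receptor chains, and Socs3. These were 4 of the 9 measured members, with none lower, where 2.56% of all genes tested passed in either direction and 1.62% passed as higher (limma, adjusted p under 0.05). The median change over the 9 members was 0.66 log2 units, against 0.01 over all genes. After quantile normalization the same 4 members passed, with 7.16% of all genes called and 3.45% called higher. The largest of the 4 changes belonged to Osmr and the smallest to Clcf1.

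Lif, a cytokine induced in glia by injury, read 7.20, 7.26 and 7.42 in the wild-type saline mice (replicates 1, 2 and 3) and 9.01, 8.52 and 8.37 after KA. All 3 KA values lay above all saline values, by 1.34 log2 units on average (SE 0.16, limma adjusted p = 1.35e-04). Clcf1, a ligand that signals through the Cntf receptor complex, read 8.26, 8.31 and 8.59 after saline and 9.76, 9.03 and 9.47 after KA. The groups again did not overlap, and the change was 1.03 log2 units (SE 0.18, limma adjusted p = 0.00227).

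Osmr, the oncostatin M receptor chain, read 8.19, 8.64 and 8.68 after saline and 10.30, 10.35 and 10.73 after KA in wild type. The lowest KA value was well above the highest saline value, and the change was 1.96 log2 units (SE 0.28, limma adjusted p = 4.4e-04). Socs3 read 8.23, 8.48 and 8.75 after saline and 10.00, 9.84 and 10.15 after KA. Its 3 KA values were close together and above every saline value, a change of 1.51 log2 units (SE 0.21, limma adjusted p = 4.26e-04). The second, dimmer Socs3 probe set read 6.90, 7.19 and 7.69 after saline and 7.76, 8.16 and 8.39 after KA, also without overlap.

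**Figure D1:**
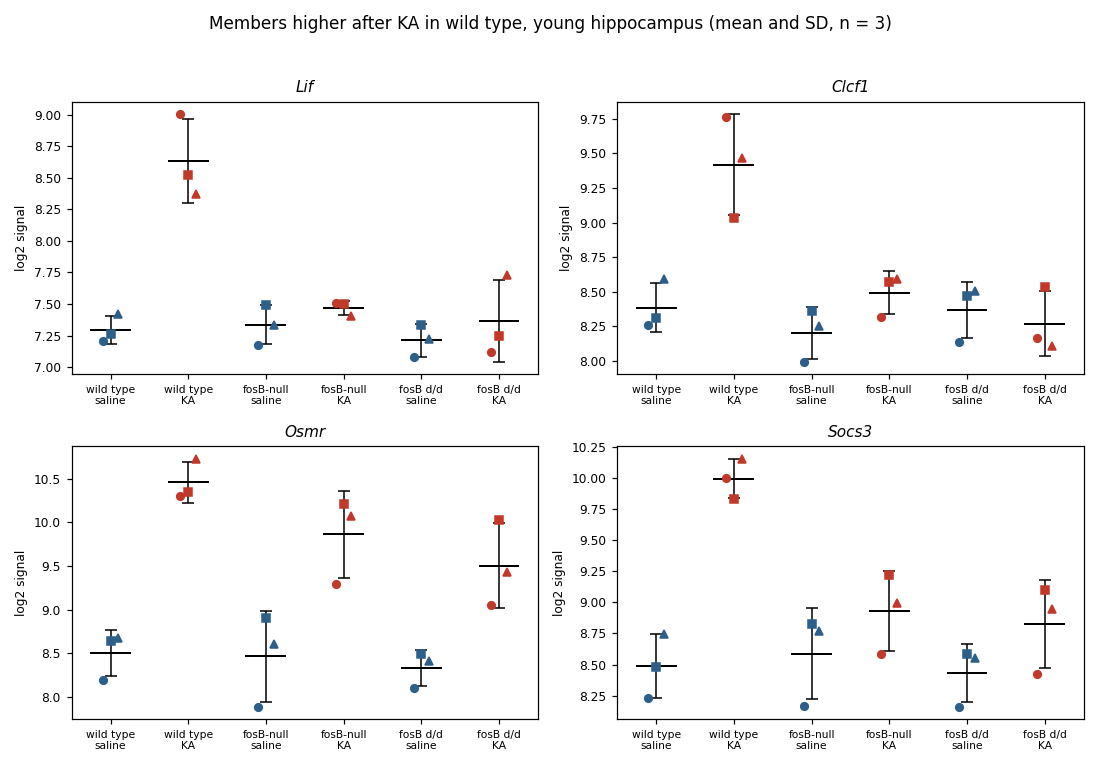
Log2 signal as deposited (vertical axis) of Lif, Clcf1, Osmr and Socs3 in each of the 18 young mice, by genotype and treatment (horizontal axis); circles, squares and triangles are replicates 1, 2 and 3, bars the mean and SD, blue saline and red KA. For Lif, Clcf1 and Socs3 the 3 wild-type KA mice lie above every other mouse, with Socs3 at 9.84 or above; Osmr is also high in both mutants after KA, from 9.06 to 10.22.

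The remaining members did not pass the test in wild type. Il6 read 3.71, 4.14 and 3.60 after saline and 4.02, 4.60 and 4.80 after KA, overlapping groups whose means differed by 0.66 log2 units (SE 0.22, limma adjusted p = 0.154). Il11 read 7.20, 7.10 and 7.35 after saline and 7.64, 7.47 and 7.98 after KA, without overlap, and the difference of 0.48 (SE 0.20) had an adjusted p of 0.307 (limma). Il6, Lif, Osm and Il11 lie among the dimmest 30% of genes on these arrays, so small changes in them are measured least well.

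Osm, the ligand of Osmr, differed by 0.09 log2 units between the wild-type KA and saline groups (SE 0.16, limma adjusted p = 0.883) while its receptor chain rose. The shared chain Il6st differed by 0.18 (SE 0.12, limma adjusted p = 0.606) and Lifr by -0.14 (SE 0.14, limma adjusted p = 0.752). The widest change among the 3 receptor chains was thus in Osmr, which pairs with gp130 for oncostatin M and with Il31ra for interleukin 31. With the array sets as a block after quantile normalization, Il11 (0.36, adjusted p = 0.0448) and Il6st (0.24, adjusted p = 0.0307) also passed in wild type, where 18.2% of all genes did (limma).

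The wild-type changes were also present within each set of arrays that holds both treatments. In replicate 1, with 1 mouse a group and hence no test, KA minus saline was 1.80 for Lif, 1.5 for Clcf1, 2.11 for Osmr and 1.77 for Socs3. In replicates 2 and 3 alone, quantile normalized, the 4 genes passed with changes of 0.97, 0.79, 1.93 and 1.41 log2 units (limma adjusted p = 0.00226, 0.00741, 4.15e-04 and 4.53e-04). That fit has 2 mice a group, and the share of all genes passing in it is not given here. All 4 genes were thus higher after KA in both sets of arrays.

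In fosB-null mice, no member passed the test between KA and saline as deposited (0 of 9, with 0.0752% of all genes passing and 0.0351% higher; limma, 2 members at an unadjusted p under 0.05, Il6 and Osmr). Among all genes, 17.7% met that unadjusted cut. Of the members, Osmr came nearest to passing. It read 7.89, 8.90 and 8.60 after saline and 9.30, 10.22 and 10.08 after KA, without overlap, a difference of 1.40 log2 units (SE 0.28, limma adjusted p = 0.0629). After quantile normalization Osmr rose by 1.56 (SE 0.25, limma adjusted p = 0.00966) as the 1 member to pass, with 0.697% of all genes called and 0.456% called higher. The array sets as a block, which tie mutant KA to saline through replicate 1 only, left it at 1.17 (limma adjusted p = 0.0452), where 0.0602% of all genes passed. With the replicate number as a block, Osmr had an adjusted p as deposited of 8.2e-04 (limma), and without KA replicate 1 it was 0.0187. The numbers were taken to pair these groups from correlated deviations in these same signals, not from a label. Replicates 2 and 3 lie in different array sets after saline and after KA.

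The other 3 members that rose in wild type did not pass in fosB-null. Lif read 7.18, 7.49 and 7.34 after saline and 7.51, 7.50 and 7.40 after KA, overlapping groups with a difference of 0.13 (SE 0.16, limma adjusted p = 0.624). Clcf1 read 7.99, 8.36 and 8.25 after saline and 8.32, 8.57 and 8.59 after KA, overlapping by 1 mouse, with a difference of 0.29 (SE 0.18, adjusted p = 0.359). Socs3 read 8.17, 8.83 and 8.77 after saline and 8.58, 9.22 and 8.99 after KA, overlapping too, with a difference of 0.34 (SE 0.21, adjusted p = 0.366). Within the numbered pairs, Socs3 was higher after KA in 3 of 3 (0.42, 0.39 and 0.22), as were Clcf1 (0.32, 0.21 and 0.34) and Lif (0.33, 0.01 and 0.07). With the pairs as a block none of the 3 passed (limma adjusted p = 0.123, 0.242 and 0.560). The second Socs3 probe set read 7.73, 7.60 and 7.86 after saline and 7.72, 7.84 and 7.74 after KA. Within pairs that probe set was higher after KA only in replicate 2. After quantile normalization the differences were 0.35 for Lif, 0.47 for Clcf1 and 0.50 log2 units for Socs3. None of the 3 passed (limma adjusted p = 0.414, 0.235 and 0.254, in the same order). Il6 read 3.98, 4.60 and 4.58 after saline and 3.98, 3.84 and 3.48 after KA, the only member with a lower mean after KA and no overlap. The nearest values, both of replicate 1, differed by only -0.0028, and Il6 did not pass (-0.62, SE 0.22, limma adjusted p = 0.218).

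In fosB d/d mice, no member passed as deposited either (0 of 9, with 0.0301% of all genes passing and 0.015% higher; limma, 1 member at an unadjusted p under 0.05, Osmr). That unadjusted cut was met by 17.2% of all genes, a share that the members did not exceed. Osmr read 8.10, 8.49 and 8.41 after saline and 9.06, 10.02 and 9.43 after KA. The groups did not overlap, and the difference was 1.18 log2 units (SE 0.28, limma adjusted p = 0.130). After quantile normalization Osmr rose by 1.33 (SE 0.25, limma adjusted p = 0.0326), again the 1 member to pass, with 0.426% of all genes called and 0.241% called higher. The replicate block, on numbers again taken as pairs from the signals, gave it an adjusted p of 0.0040 (limma). Leaving out KA replicate 1 gave 0.0462 (limma). The array sets as a block gave 0.0655 (limma) at 0.95 log2 units, where 0.181% of all genes passed.

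Lif, Clcf1 and Socs3 overlapped between treatments in fosB d/d. Lif read 7.08, 7.33 and 7.23 after saline and 7.12, 7.25 and 7.73 after KA (0.15, SE 0.16, limma adjusted p = 0.584). Clcf1 read 8.13, 8.47 and 8.50 after saline and 8.16, 8.54 and 8.11 after KA (-0.10, SE 0.18, adjusted p = 0.738), its difference turning to 0.06 after quantile normalization, as those of Il6, Osm, Il6st and Lifr also turned sign. Socs3 read 8.16, 8.58 and 8.55 after saline and 8.43, 9.10 and 8.94 after KA (0.39, SE 0.21, adjusted p = 0.330). Within pairs Socs3 was higher after KA in 3 of 3 (0.27, 0.52 and 0.39; limma adjusted p = 0.0887 with the block), and Lif and Clcf1 in 2 of 3. The second Socs3 probe set read 7.01, 7.46 and 7.54 after saline and 7.36, 7.66 and 7.84 after KA. It was higher in each pair, with overlapping groups. In replicate 1, where all groups share an array set, KA minus saline was 1.41 for Osmr, 0.42 for Socs3, 0.33 for Lif and 0.32 for Clcf1 in fosB-null. The same differences were 0.96, 0.27, 0.04 and 0.03 in fosB d/d, each smaller than in wild type.

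**Figure D2:**
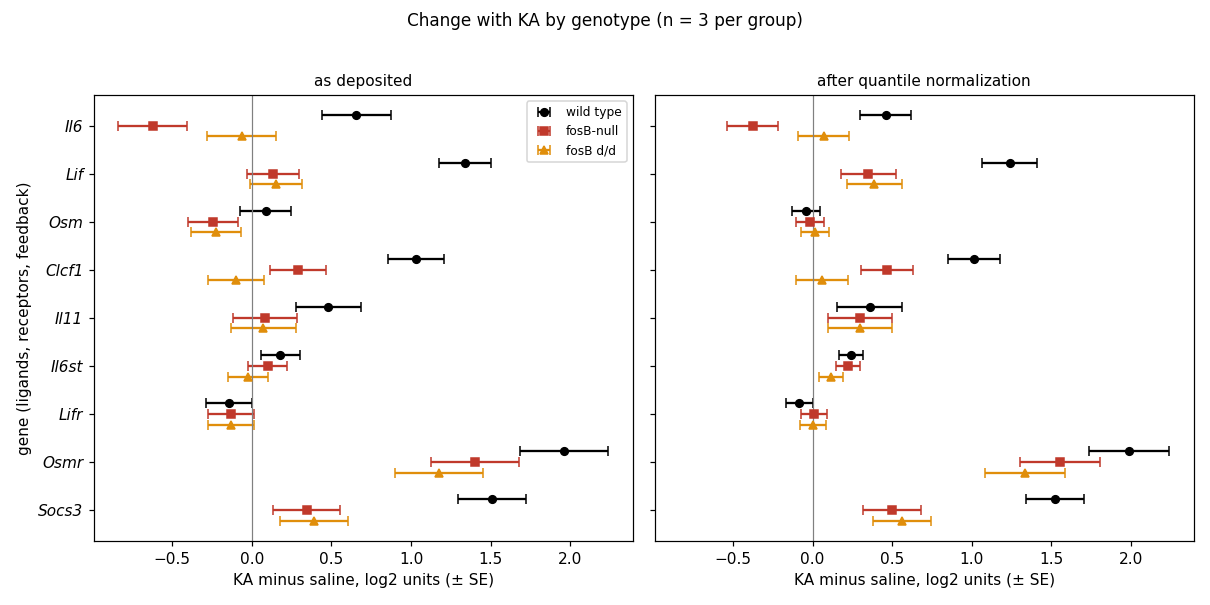
KA minus saline in log2 units (horizontal axis, points with SE from limma, n = 3 a group) for the 9 measured members (vertical axis, ligands, then receptor chains, then Socs3) in wild type (black circles), fosB-null (red squares) and fosB d/d (orange triangles), as deposited on the left and after quantile normalization on the right. Lif, Clcf1, Osmr and Socs3 lie above 1 in wild type; in the mutants the change of Osmr alone lies above 1.

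The direct test of whether the response to KA differed between genotypes did not pass for any member as deposited. For fosB-null minus wild type, 0 of 9 members passed, with 0.0401% of all genes passing and 0.186% after quantile normalization (limma, 4 members at an unadjusted p under 0.05: Il6, Lif, Clcf1 and Socs3). That unadjusted cut was met by 14.9% of all genes. The difference of the responses was -1.20 log2 units for Lif (SE 0.23, limma adjusted p = 0.0571), -1.17 for Socs3 (SE 0.30, adjusted p = 0.120), -1.28 for Il6 (SE 0.31, adjusted p = 0.104), -0.74 for Clcf1 (SE 0.25, adjusted p = 0.184) and -0.56 for Osmr (SE 0.39, adjusted p = 0.529). All were below the median gene's -0.17, and Il6 is by far the dimmest of these genes. Il6, Lif and Socs3 passed without fosB-null saline replicate 1 or without wild-type KA replicate 1, and Lif alone without fosB-null KA replicate 1. Il6, Lif and Socs3 also passed with the replicate number as a block (limma adjusted p = 0.043, 0.0212 and 0.0123). The numbers do not pair wild-type KA with wild-type saline (r from -0.32 to 0.17), so that block is a fit on shared numbers only. Replicate 1 is also an array set of its own, and the share of all genes passing with that block is not given here. With the array sets as a block after quantile normalization, Socs3 (-1.35, limma adjusted p = 0.00374) and Lif (-1.16, adjusted p = 0.0453) passed, with 1.22% of all genes called. In that fit the mutant KA level is tied to the other groups only through replicate 1 of the mutants.

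For fosB d/d minus wild type, again 0 of 9 passed, with 0.015% of all genes passing and 0.0201% after quantile normalization (limma, the same 4 members at an unadjusted p under 0.05). That unadjusted cut was met by 11.7% of all genes. The difference was -1.18 for Lif (SE 0.23, limma adjusted p = 0.125), -1.13 for Clcf1 (SE 0.25, adjusted p = 0.190), -1.12 for Socs3 (SE 0.30, adjusted p = 0.315), -0.78 for Osmr (SE 0.39, adjusted p = 0.436) and -0.72 for Il6 (SE 0.31, adjusted p = 0.405). With the array sets as a block after quantile normalization, Socs3 (-1.29, limma adjusted p = 0.00592) and Clcf1 (-1.21, adjusted p = 0.0441) passed, with 0.802% of all genes called. Lif passed without fosB d/d KA replicate 3, and Lif and Socs3 with the replicate number as a block (limma adjusted p = 0.0379 and 0.0209). Here too the replicate block is a fit on shared numbers only, without a share of all genes beside it. The responses of Osm, Il6st and Lifr differed between each mutant and wild type by -0.33 to 0.01 log2 units as deposited, and none of the 3 passed.

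Among KA-treated mice, Lif, Clcf1 and Socs3 were lower in both mutants than in wild type. In fosB-null, 3 of 9 members were lower and none higher, where 1.05% of all genes passed, nearly all of them lower (1.04%). Lif was lower by 1.16 log2 units on average (log2 -1.16, SE 0.16, limma adjusted p = 0.00216), Socs3 differed by -1.06 (SE 0.21, adjusted p = 0.0224) and Clcf1 by -0.93 (SE 0.18, adjusted p = 0.0177). In each of the 3 genes the highest fosB-null value lay below the lowest wild-type value. How many of all genes did not overlap was not counted, and the median gene was itself lower in each mutant as deposited. The second Socs3 probe set overlapped here: wild-type mice started at 7.76 and both fosB-null and fosB d/d mice reached 7.84, with mean differences of -0.34 and -0.48. After quantile normalization the differences were -0.92, -0.89 and -0.73, and the 3 genes still passed (limma adjusted p = 0.0208, 0.0327 and 0.0493), with 0.858% of all genes called and 0.466% called lower.

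The calls of Clcf1 and Socs3 in that comparison depended on single mice. Without wild-type replicate 3 their adjusted p-values were 0.103 and 0.133, and without fosB-null replicate 3 they were 0.0678 and 0.0916 (limma). Without fosB-null replicate 2, Clcf1 had an adjusted p of 0.0563. With the replicate number as a block, again taken as pairs from the signals, 6 of 9 members were lower: Il6 (limma adjusted p = 0.0465), Osm (0.0482) and Osmr (0.0359) were added. The share of all genes passing with that block is not given here, so this count cannot be set against it. Osmr read -0.60 against wild type as deposited (SE 0.28, limma adjusted p = 0.193), and -0.83 with the array sets as a block (adjusted p = 0.0367, with 1.97% of all genes called). The array set block ties the mutant KA level to wild type only through replicate 1 of the mutants. Median centring in place of quantile normalization gave Clcf1 an adjusted p of 0.0789 and Socs3 one of 0.0507, and the mean of both Socs3 probe sets gave 0.0743 (limma). In a fit of these 2 groups alone, no member passed, with adjusted p-values of 0.0593 for Lif, 0.0674 for Socs3 and 0.116 for Clcf1 (limma, against 5 members at an unadjusted p under 0.05 in the fit of all young mice). In that fit of all young mice, 24.7% of all genes met the unadjusted cut.

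In fosB d/d after KA, the same 3 genes were lower than in wild type and none was higher, where 1.98% of all genes passed and 1.96% were lower. The differences were -1.27 for Lif (SE 0.16, limma adjusted p = 0.00117), -1.17 for Socs3 (SE 0.21, adjusted p = 0.00858) and -1.15 for Clcf1 (SE 0.18, adjusted p = 0.00296), without overlap in any of them (not counted over all genes). After quantile normalization they were -0.98, -0.98 and -0.94 (limma adjusted p = 0.0173, 0.0218 and 0.0170), with 0.677% of all genes called and 0.436% called lower. Without wild-type replicate 3, Socs3 had an adjusted p of 0.0636 (limma). Osmr differed by -0.96 (SE 0.28, limma adjusted p = 0.0692) and Il6 by -0.78 (SE 0.22, adjusted p = 0.0640), each without overlap and short of the threshold. Both passed without wild-type replicate 1, and Osmr passed with the array sets as a block (-1.18, limma adjusted p = 0.00443), where 2.22% of all genes passed. With that block the mutant KA level again rests on replicate 1 of the mutants. The 2 comparisons with wild type share the wild-type KA mice.

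After KA, no gene of the 19938 passed between fosB-null and fosB d/d (0%; limma, 0 members at an unadjusted p under 0.05, and 0 genes after quantile normalization). The unadjusted cut was met by 0.707% of all genes. The member differences lay between -0.04 and 0.36 log2 units, the highest that of Osmr (0.36, SE 0.28). For Osmr, the order of the 6 young group means was wild type after KA (10.46 ± 0.23, SD, n = 3), fosB-null after KA (9.86 ± 0.50), fosB d/d after KA (9.51 ± 0.49), then the 3 saline groups between 8.33 and 8.50. The mutant KA groups overlapped each other, as did the 3 saline groups. For Socs3 the order was wild type after KA (10.00 ± 0.16), fosB-null after KA (8.93 ± 0.32), fosB d/d after KA (8.83 ± 0.35) and the saline groups (8.43 to 8.59), where all groups below the first overlapped.

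After saline, no member differed between genotypes by the test. Passing genes were 0.00502% of all for fosB-null against wild type and 0% for fosB d/d against wild type and for fosB-null against fosB d/d (limma). At an unadjusted p under 0.05 the member counts were 1, 0 and 1, Il6 in both cases, and after quantile normalization 0.0802%, 0.01% and 0.0401% of all genes passed, with no member among them. Of all genes, 4.74%, 0.813% and 3.03% met the unadjusted cut, in the same order. Il6 read 0.57 log2 units higher in fosB-null than in wild type (SE 0.22, limma adjusted p = 0.987). It read 0.63 higher in fosB-null than in fosB d/d, without overlap (SE 0.22, adjusted p = 1.0). The other 8 members differed by -0.18 to 0.16 in these 3 comparisons, with Socs3 read from its brighter probe set. After saline the second Socs3 probe set read 7.73 ± 0.13 in fosB-null, 7.26 ± 0.40 in wild type and 7.34 ± 0.28 in fosB d/d (SD). On that probe set fosB-null overlapped wild type and not fosB d/d, and the difference was not tested.

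**Figure D3:**
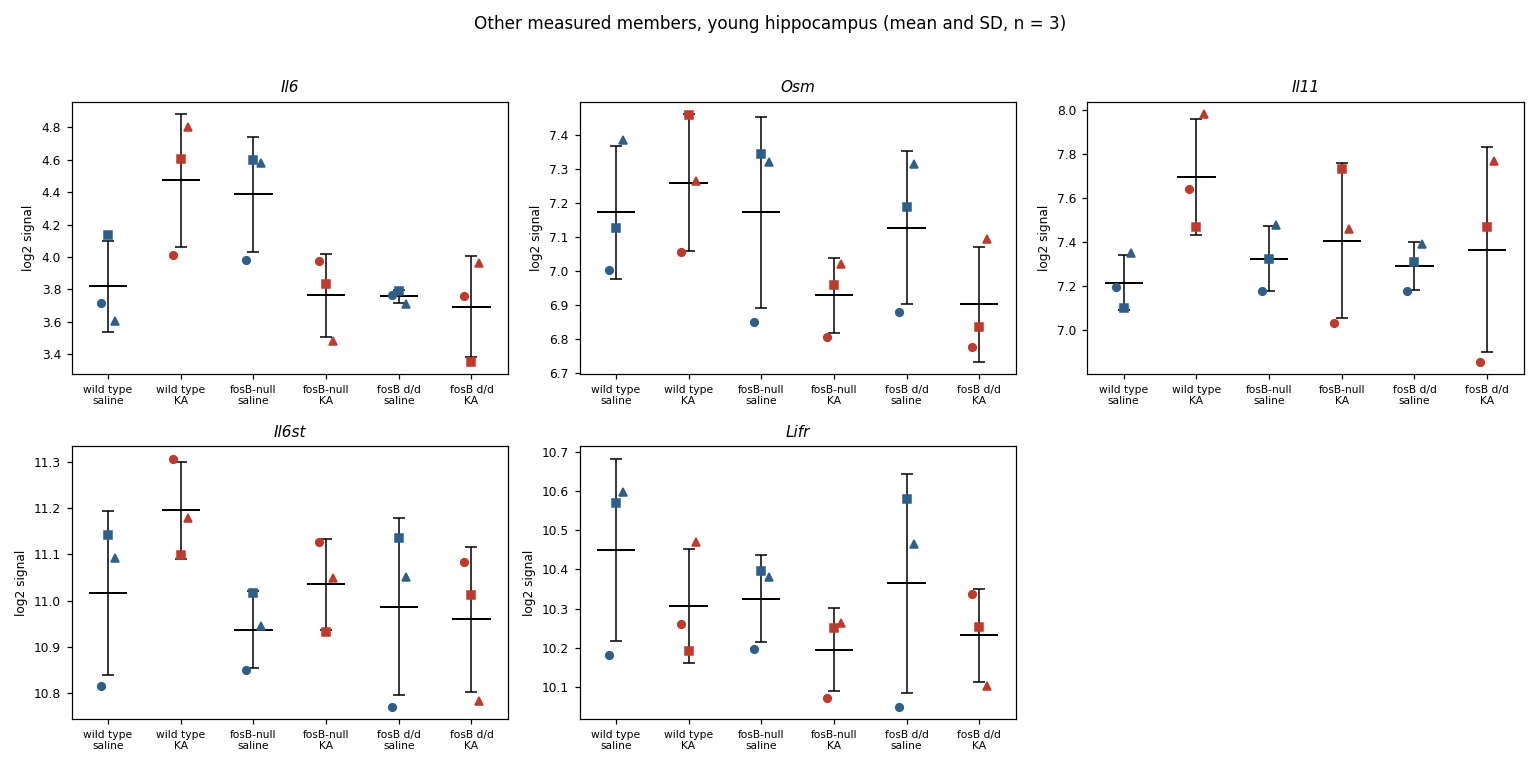
Log2 signal as deposited (vertical axis, a separate range for each gene) of Il6, Osm, Il11, Il6st and Lifr in the 18 young mice, by genotype and treatment (horizontal axis); circles, squares and triangles are replicates 1, 2 and 3, bars the mean and SD, blue saline and red KA. None of the 5 genes passed in any comparison of the young mice as deposited; the 3 wild-type KA mice lie above the wild-type saline mice for Il11, from 7.47 against at most 7.35.

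The receptor chains Il6st and Lifr kept within narrow ranges across all 10 groups. Il6st means ran from 10.66 ± 0.05 in aged fosB d/d (SD, n = 2) to 11.19 ± 0.10 in wild type after KA (n = 3). Lifr means ran from 10.12 ± 0.11 in aged fosB d/d to 10.45 ± 0.23 in wild type after saline. Osm means ran from 6.67 ± 0.15 in aged fosB-null mice without epilepsy to 7.26 ± 0.20 in wild type after KA. Young and aged mice were fitted apart and were not compared by a test.

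In aged mice no member passed in any comparison. In fosB-null mice with epilepsy against wild type, no gene at all passed (0% of genes, as deposited and after quantile normalization; limma, 0 members at an unadjusted p under 0.05). The unadjusted cut was met by 3.09% of all genes. The member differences lay between -0.04 and 0.16 log2 units. Lif read 6.95, 7.49 and 7.19 in the mice with epilepsy and 7.04, 7.17 and 7.13 in wild type, so the epileptic mice spanned the wild-type range. Osmr read 8.64, 8.97 and 8.81 against 8.65, 9.0 and 8.41, and Socs3 8.02, 8.56 and 8.23 against 8.07, 8.24 and 8.14. The members that were raised after KA in wild-type young mice thus overlapped between aged epileptic fosB-null and aged wild-type mice.

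Against aged wild type, the median gene read -0.14 in non-epileptic fosB-null mice and -0.13 in fosB d/d. Members passing were 0 of 9 in each, with 0.115% and 0.0552% of all genes passing, and 0.236% and 0.211% after quantile normalization (limma, 1 member each at an unadjusted p under 0.05, Lifr). The unadjusted cut was met by 22.9% and 22.3% of all genes, shares that the members did not exceed. Lifr read 10.18 and 10.09 in fosB-null mice without epilepsy, and 10.05 and 10.20 in fosB d/d, against 10.20, 10.52 and 10.44 in wild type. Neither mutant overlapped wild type, though the nearest mice were close, and the differences were -0.25 (SE 0.10, limma adjusted p = 0.197) and -0.27 (SE 0.10, adjusted p = 0.187). Osmr in fosB d/d read 8.30 and 8.38, below all wild-type mice (-0.35, SE 0.16, limma adjusted p = 0.232).

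Between aged fosB-null mice with and without epilepsy, 0 of 9 members passed, with 0.0602% of all genes passing, 0.166% after quantile normalization and a median gene at 0.15 (limma, 2 members at an unadjusted p under 0.05, Il11 and Lifr). Of all genes, 22.5% met that unadjusted cut, a share that the members did not exceed. Lifr read 10.36, 10.44 and 10.40 with epilepsy, above both mice without (0.26, SE 0.10, limma adjusted p = 0.189). Il11 read 6.98, 7.38 and 7.36 with epilepsy and 6.53 and 7.06 without, overlapping groups (0.44, SE 0.17, adjusted p = 0.172). Choroid plexus markers, 9 of 10 measured, differed in level between the aged groups, with a mean log2 signal of 7.98 to 8.43 in wild type, 9.76 to 10.30 in fosB-null without epilepsy, 8.11 to 10.14 with epilepsy and 7.93 to 7.97 in fosB d/d after quantile normalization. None of the 9 passed in the aged comparisons, and their part in the members' values was not tested.

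**Figure D4:**
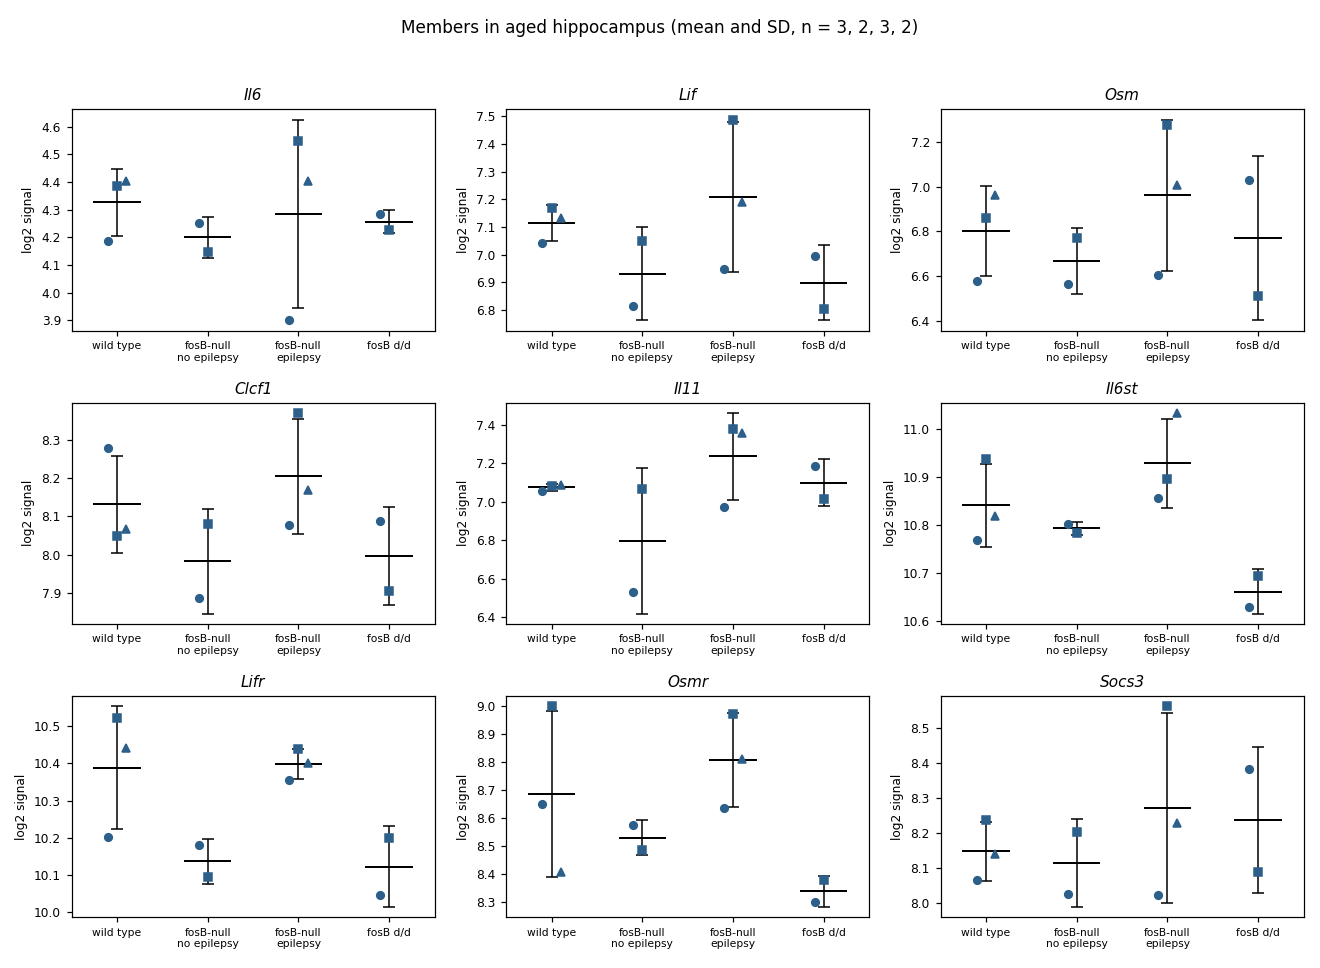
Log2 signal as deposited (vertical axis, a separate range for each gene) of the 9 measured members in the 10 aged mice, by genotype and epilepsy (horizontal axis); circles, squares and triangles are replicates 1, 2 and 3, bars the mean and SD. No member passed in any comparison; Lifr in non-epileptic fosB-null mice (10.18 and 10.09) and fosB d/d mice (10.05 and 10.20) lies at or below the lowest wild-type value of 10.20.

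The wider pathway around the 9 members was read from lists of the other ligands, receptors, signal transducers, feedback inhibitors and STAT3 target genes. In wild type with KA, where 2.56% of all genes passed, 0 of 5 other measured ligands did, and 1 of 4 other receptors fell, Cntfr, the alpha chain for Cntf and Clcf1 (-0.58, SE 0.12, limma adjusted p = 0.0135). Among 7 JAK and STAT transducers 1 rose, Stat3, by 1.29 log2 units (SE 0.17, adjusted p = 2.22e-04). None of the 11 other feedback inhibitors passed as deposited, so among the SOCS genes measured Socs3 was the one called. After quantile normalization, with 7.16% of all genes called, Pias3 fell and Ptpn2 rose in that list, and Stat5a and Jak1 joined Stat3. On that scale Cntfr also fell in fosB-null (-0.36, limma adjusted p = 0.0413), where 0.697% of all genes passed.

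Of 16 STAT3 target genes, 5 rose with KA in wild type, where 1.62% of all genes did: Timp1, a protease inhibitor (3.88 log2 units), Gfap, the intermediate filament of reactive astrocytes (1.51), Bcl3 (1.49), Lcn2 (1.13) and Myc (1.05). After quantile normalization Mcl1 was added (0.44, limma adjusted p = 0.0354), where 3.45% of all genes rose. In both mutants only Gfap and Timp1 of this list rose as deposited, where 0.0351% (fosB-null) and 0.015% (fosB d/d) of all genes did. After quantile normalization Bcl3 also rose in fosB-null (0.83, limma adjusted p = 0.0453), where 0.456% of all genes did. Stat3 read 0.76 higher with KA in fosB-null (limma adjusted p = 0.111) and 0.60 in fosB d/d (adjusted p = 0.172), and after quantile normalization it rose in both, by 0.88 (adjusted p = 0.0106) and 0.74 (adjusted p = 0.0367). Against wild type after KA, fosB-null mice had a lower Myc signal (-0.78, limma adjusted p = 0.0188), 1 of the 16 targets, where 1.04% of all genes were lower. In fosB d/d, where 1.96% of all genes were lower, Stat3 (-0.74, adjusted p = 0.0331), Ptpn2 (-0.55, adjusted p = 0.0424) and 4 targets, Timp1 (-2.05), Myc (-0.96), Lcn2 (-0.91) and Bcl3 (-0.90), were lower than in wild type, of which Timp1 and Myc still passed after quantile normalization. No gene of the 5 lists passed in the tests of the difference in response, after saline, between the mutants or in the aged mice, as deposited.

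Across the 28 arrays, quantile normalized, the genes whose levels ran most like Lif were Myc (Pearson r = 0.93), Gal (0.91), Tubb6 (0.90), Clcf1 (0.89) and Itga5 (0.89). Those most like Socs3 were Tubb6, Emp1, Wwtr1, Sbno2 and Ccl12, each with r = 0.96. Without the 3 wild-type KA arrays, over 25 arrays, the values were 0.81, 0.74, 0.70, 0.50 and 0.72 for Lif and 0.90, 0.92, 0.91, 0.89 and 0.88 for Socs3. The likeness of Clcf1 to Lif thus rested in large part on the wild-type KA mice. These correlations describe arrays that share groups and array sets.

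Markers of other cells varied between the mice beside these results. Choroid plexus markers, 9 of 10 measured, had a mean log2 signal of 8.10 to 10.16 in wild type after saline and 9.19 to 10.22 after KA, of 8.14 to 10.14 and 9.43 to 10.24 in fosB-null, and of 9.95 to 10.27 and 10.12 to 10.20 in fosB d/d, quantile normalized. None of the 9 passed in the KA comparisons, and their part in the members' changes was not tested. Microglial markers read 9.44 to 9.59 in wild type after saline and 9.60 to 9.69 after KA, with 0 of 8 passing as deposited and 2 higher after quantile normalization, C1qa and C1qb (limma; 2.56% of all genes passed as deposited, and 7.16% after quantile normalization, 3.45% as higher). In the mutants they read 9.50 to 9.52 and 9.51 to 9.61 (fosB-null), and 9.43 to 9.55 and 9.45 to 9.52 (fosB d/d). C1qa was the 1 microglial marker lower in each mutant than in wild type after KA as deposited, and it did not pass after quantile normalization.

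Astrocyte markers went both ways with KA in wild type. As deposited 1 of 8 passed, Gja1, which fell, and after quantile normalization Aqp4 (group means 10.91 to 11.68) and Sox9 (10.49 to 10.96) rose while Gja1 (11.50 to 10.52) and Aldoc (13.29 to 13.00) fell. The mean of the list, 11.34 to 11.39 after saline and 11.20 to 11.33 after KA, holds both directions. It was 11.30 to 11.40 and 11.30 to 11.41 in fosB-null, and 11.34 to 11.41 and 11.25 to 11.35 in fosB d/d. No astrocyte marker passed between KA and saline in either mutant on either scale.

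Oligodendrocyte markers were lower in mean after KA for 6 of 6 genes in wild type, 6 of 6 in fosB-null and 5 of 6 in fosB d/d. The list read 11.39 to 11.66 after saline and 11.06 to 11.31 after KA in wild type, 11.43 to 11.55 and 11.19 to 11.33 in fosB-null, and 11.42 to 11.46 and 11.20 to 11.40 in fosB d/d, without overlap in any genotype. How many of all genes were lower, or did not overlap, was not counted, and the median gene was itself lower after KA in each mutant as deposited. Cnp passed in wild type on both scales, where 2.56% of all genes passed as deposited and 7.16% after quantile normalization. Mobp passed in fosB-null after quantile normalization, where 0.697% of all genes did. Cspg4, of the 5 oligodendrocyte precursor markers, was lower in wild type, as was Dcn, of the 8 meningeal fibroblast markers. The meningeal list read 8.97 to 9.52 and 8.91 to 9.0 in wild type, 8.82 to 9.37 and 9.01 to 9.61 in fosB-null, and 9.24 to 9.50 and 9.18 to 9.33 in fosB d/d. Monocyte and macrophage markers read 6.80 to 6.86 and 6.61 to 6.84 in wild type, and neutrophil markers 6.37 to 6.50 and 6.56 to 6.59, with 0 of 6 passing in each list as deposited and 1 in each after quantile normalization, Pf4 lower and Ly6g higher. The part of these lists in the members' values was not tested either.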

How the data were processed

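Hippocampal RNA (100 ng) of 28 mice was hybridised to Affymetrix arrays, and the authors deposited log2 signals for 35557 probe sets, made with Affymetrix Expression Console per the submitters' processing notes; the version, summary method and normalization are not given in the sources used here. Probe sets were named from the platform annotation, and 21789 carried 1 gene symbol. Where a gene had several, the one with the highest mean was kept, giving 19938 genes. No column of other samples was present.

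Groups were compared with limma 3.58.1 (R 4.3.3; lmFit and eBayes), the 18 young and the 10 aged arrays in separate fits, with Benjamini-Hochberg adjustment over all genes in each comparison and an adjusted p under 0.05 as passing. No filter on signal was used. Shares of all genes passing are given as deposited, after quantile normalization and with the array set block, and for no other setting. Replicate arrays of a group correlated at 0.978 to 0.996. Replicate numbers are shared between groups in the labels. They were taken to pair 2 groups where every same-numbered pair of deviations from the group means correlated above 0.1, as in KA against saline in fosB-null (0.18 to 0.37) and in fosB d/d (0.29 to 0.34), in fosB-null against wild type after KA (0.35 to 0.42), in both saline comparisons with fosB d/d and between the epileptic fosB-null and the wild-type aged mice. In simulated data, 200 genes were changed in the comparison of KA with saline in wild type. As deposited, 94% of changes of 1 log2 unit and 100% of changes of 2 were recovered, with 5 false calls among 19938 genes. After quantile normalization these were 93%, 100% and 14. Noise was drawn independently for each gene, and the comparisons that involve the mutants were not simulated.

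The members and the gene lists were chosen with earlier results of these data known. All members are named, and of each pathway list the genes that passed, at most 4 of smallest p per comparison, except that the fifth STAT3 target in wild type, and the genes added by quantile normalization, were named after their values were seen. For Lif and Socs3 the 5 genes of highest correlation are named.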

Additional observations from a re-analysis of the deposited data

How the results depend on the processing

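With 2 or 3 mice a group and 1 array each, small differences in dim genes could not be resolved. Of the counts of members passing under another setting, 130 were within 1.5 times the count as reported and 36 were not. The single values recomputed were those of the members called in wild type with KA or between genotypes after KA, and of Osmr in both mutants with KA: 175 kept their direction and side of the threshold, 12 lost the threshold, 18 gained it and 0 changed sign. Over all 9 members and all comparisons, 24 of 135 differences changed sign with quantile normalization, 5 of them for KA in fosB d/d, and 0 of the 24 passed on either scale. In wild type with KA, the count of 4 was 4 to 5 without single mice. The fits of array sets alone were chosen after seeing the data. The cause of the shifts that follow was not tested. Among the settings that follow, the share of all genes passing is given only for quantile normalization and the array set block. Member counts under the other settings, array weights among them, cannot be set against such a share.

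For KA against saline in fosB-null (0 members as reported), the count was 1 after quantile normalization, after median centring, with the replicate block, with the block and quantile normalization, with the array set block, without the dimmest 30% of genes, with trended and robust moderation and in 1 fit of all 28 arrays, 4 with array weights, and 0 to 1 without single mice. In fosB d/d (0) it was 1 after quantile normalization, median centring, the replicate block with or without quantile normalization, a fit of the groups compared alone and 1 fit of all 28 arrays, 5 with array weights, and 0 to 1 without single mice. For the difference in response of fosB-null and wild type (0), it was 3 with the replicate block, 1 with the block and quantile normalization, 2 with the array set block, 2 with all 28 arrays, 5 with array weights, and 0 to 3 without single mice. For fosB d/d (0), it was 2 with the replicate block, 2 with the array set block, 2 with all 28 arrays, 5 with array weights, and 0 to 1 without single mice. After KA, fosB-null against wild type (3) gave 1 after median centring, 6 with the replicate block, 0 with the groups compared alone, 5 with array weights, and 1 to 4 without single mice; fosB d/d against wild type (3) gave 6 with the replicate block, 5 with all 28 arrays, 6 with array weights, and 2 to 5 without single mice. After saline, array weights gave 1 member for fosB-null against wild type and 3 for fosB-null against fosB d/d. In aged mice, array weights gave 1 for fosB-null without epilepsy against wild type and 4 for fosB-null with against without epilepsy, and leaving out single mice gave 0 to 0 in the saline, mutant and aged comparisons. Where the numbers were not taken to pair the groups, the block is a fit on shared numbers only. Where they were, it changed no call beyond those given with the results.

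The count of all genes passing also moved by more than 1.5 times with quantile normalization, from 510 to 1427 in wild type with KA, 15 to 139 in fosB-null, 6 to 85 in fosB d/d, 8 to 37 for the difference in response of fosB-null, and 394 to 135 in fosB d/d against wild type after KA.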
